A study of Mus musculus with 4 samples.

Results

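The motile cilium axoneme genes described here are the 71 genes whose GRCm38 symbol belongs to a set of axonemal naming families (Dnah, Dnai and Dnaic, Dnali, Dnaaf, Rsph, Cfap, Tekt and Drc followed by a number), together with Hydin. They were taken from 47729 genes listed per library by a rule on names, which was set with earlier results of these data known. Of the 71, 70 are protein-coding and 1, Dnah2os, is an antisense RNA that the pattern also takes. RNA from mouse lung was sequenced in 4 libraries of the strain BL/6 and the genotype Control (Rosa), which both groups share. The Sugen-Hypoxic group held 2 libraries, each a pool of 2 males, from mice given hypoxia with Sugen, an inhibitor of VEGF receptors that is combined with low oxygen to model pulmonary hypertension in rodents. The Normoxic group held 2 libraries, of which replicate 1 was a pool of 3 females and replicate 2 a pool of 1 female and 2 males. The study's arm with a KCNK3 mutation was not analysed here, and no label states the age of the mice or how long they were treated. No group had Sugen or hypoxia alone, so the effects of the agents cannot be told apart. The share of males in the pools moved with treatment, so sex and treatment are partly confounded. Replicates are pools of several mice, and p-values measure only the spread between these pools.

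The axoneme is the microtubule core of a motile cilium, built of outer doublets around a central pair. Dynein arms on the doublets are the motors: outer arms set beat frequency and inner arms shape the stroke. Radial spokes and the central apparatus regulate the arms, the nexin-dynein regulatory complex links neighbouring doublets, and tektins and other proteins line the doublet wall. In the lung these structures are found chiefly in the multiciliated cells of the conducting airways, where their beating clears mucus, and mutations in many of the genes cause primary ciliary dyskinesia in humans.

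Gene counts summed to 57319562 to 67135829 per library, and the tested members held 13 to 5924 reads in a library. Levels are given in CPM, the count per 1000000 gene counts of the library. One label field says lung and the extraction protocol speaks of kidneys. The 8 markers of alveolar type 2 cells summed to 28289 and 28347 CPM in the Sugen-Hypoxic libraries, against 29423 and 28426 CPM in the Normoxic libraries, and the 8 kidney markers summed to 0.366 and 0.337 CPM in the Sugen-Hypoxic libraries, against 1.01 and 0.824 CPM in the Normoxic libraries. Sperm flagella also contain axonemes, and the 8 markers of male germ cells summed to 0.0698 and 0.184 CPM in the Sugen-Hypoxic libraries, against 0.238 and 0.103 CPM in the Normoxic libraries, with 3 of the 8 at 0 in all 4 libraries. Prm1, Tnp1 and Tnp2, which package or replace histones in sperm, were those 3, named after their values were seen.

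Axoneme genes were lower in lungs of Sugen-Hypoxic mice, with genes that fell in every structural class and among the members of another or an unsettled place. Of the 68 members that passed the expression filter, 44 fell and 0 rose in edgeR's quasi-likelihood test at an adjusted p under 0.05, and 24 did not pass. Among all 18783 genes tested, 11.5% were called in either direction, 6.01% as lower and 5.51% as higher. That split, 1128 lower and 1035 higher, became 1424 and 799 under upper-quartile scaling and 1584 and 765 when scaled by library size. An unadjusted p under 0.05 was reached by 55 members, against 30.1% of all genes tested. The median log2 fold change, Sugen-Hypoxic over Normoxic, was -0.73 over the tested members and 0.00 over all genes tested. The log2 fold change was below 0 in 62 of the 68, against 50.5% of all genes tested. Members summed to 781 and 898 CPM in the Sugen-Hypoxic libraries, against 1404 and 1398 CPM in the Normoxic libraries. In 61 of the 68 members both Sugen-Hypoxic libraries lay below both Normoxic libraries in CPM, which was so for 40.0% of all genes tested. The 44 members that fell retained 43.4 to 73.8% of their normoxic mean. In whole lung, fewer ciliated cells and less of these RNAs in each cell cannot be told apart.

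The direction was shared by single libraries, while the calls, over all genes tested as well as over the members, rested on the Normoxic pair. Without Normoxic replicate 1, 0 members passed, and without Normoxic replicate 2, 0 passed as well, with the spread then coming from the Sugen-Hypoxic pair alone. The medians in those fits were -0.69 and -0.77, and 47 and 48 members had an unadjusted p under 0.05. Without Sugen-Hypoxic replicate 1 or 2, the medians over the members were -0.64 and -0.82, with the spread then coming from the Normoxic pair alone. When the male fraction of each pool entered the fit, 1 of the 2 residual degrees of freedom was taken up. In that fit 11 of all 18783 genes tested passed, and 0 members (31 at an unadjusted p under 0.05). The median over the members was -0.68. DESeq2 called 50 members and limma-voom 44, all as lower. Over all genes tested they called 3254 and 2156, against 2163 in the main fit.

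The Normoxic pools, which differed in sex, were close to each other. The mixed pool stood over the all-female pool at a median log2 ratio of -0.03 over the 68 members, with quartiles of -0.09 and 0.07. The ratio of any Sugen-Hypoxic library to any Normoxic library had a median between -0.93 and -0.69 over the members, against -0.10 to -0.05 over all genes tested. The pair of Sugen-Hypoxic libraries lay further apart. Replicate 2 stood above replicate 1 in 50 of the 68 members, with a median log2 ratio of 0.16, against 0.02 over all genes tested. The gap was 0.37 in the 14 tested dynein heavy chains (higher in 12) and 0.14 in the 54 other tested members (higher in 38).

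**Figure D1:**
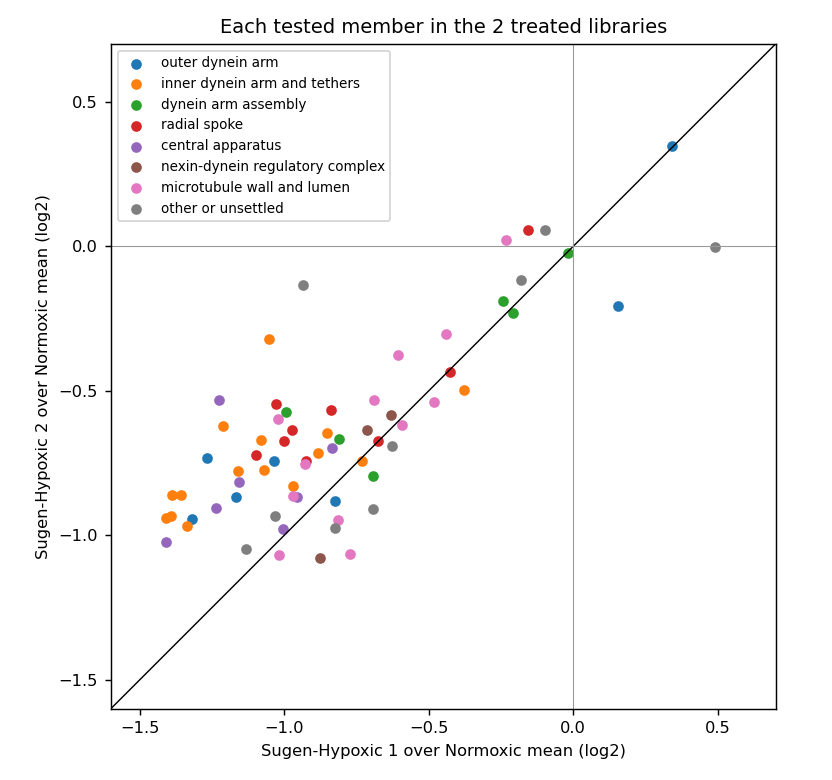
Log2 ratio of each tested member in Sugen-Hypoxic replicate 1 (x axis) and replicate 2 (y axis) to the mean of the Normoxic libraries, 1 point per member, coloured by structure. Most points lie below 0 on both axes and above the diagonal, which marks equal values, as 50 of the 68 members were higher in replicate 2 than in replicate 1.

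Promoters of the members carried letters of the X-box more often than promoters in general. The X-box is the motif bound by RFX factors, which with Foxj1 drive transcription of ciliary genes. RefSeq promoters of build GRCm38.p6, from 250 bases before to 50 after the start site, were matched by symbol for 58 of the 71 members. The core letters GTTGCC, sought on both strands, were in 23 of the 58 (39.7%), against 14.1% of 27025 genes with a promoter. Pairs of GTNNCC and GGNNAC parted by 1 to 3 letters, which can contain the core letters, were in 9 (15.5%), against 4.0%. The forkhead letters GTAAACA were in 4 (6.90%), against 4.05%. Core letters starting no more than 60 bases before the start site or after it, a range chosen after the positions were seen, were in 18 of the 58 (31.0%), against 6.07% of all genes. The core letters were in 14 of 37 called members (37.8%) and in 9 of 18 tested members that were not called. The lines that follow show 1 occurrence each in capitals, written along the gene's strand, in the 5 called members outside the Cfap family with the lowest fold changes among those that have them in the last 60 bases before the start site. Cfap58 is added because its core letters belong to such a pair. In Hydin, Dnaic2 and Drc1 the capitals read GGCAAC, the same letters on the opposite strand. The capitals begin 11 bases before the start site in Drc1, 13 in Hydin, 15 in Tekt1, 20 in Dnah10, 26 in Dnaic2 and 59 in Cfap58. The lines of Tekt1 and Dnah10 each hold the core letters once more in lower case, beginning 35 bases before the start site on the opposite strand in Tekt1 and 10 after it in Dnah10. These shares are descriptions with no test, and a match describes letters, not a bound site.
Hydin, chr8:110266934-110266999 (+ strand): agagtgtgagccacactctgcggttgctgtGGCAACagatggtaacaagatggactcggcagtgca
Dnah10, chr5:124725035-124725100 (+ strand): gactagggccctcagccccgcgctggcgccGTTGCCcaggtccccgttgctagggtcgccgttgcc
Dnaic2, chr11:114727363-114727428 (+ strand): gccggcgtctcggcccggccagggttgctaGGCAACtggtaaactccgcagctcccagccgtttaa
Drc1, chr5:30281352-30281417 (+ strand): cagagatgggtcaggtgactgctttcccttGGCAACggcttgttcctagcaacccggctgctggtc
Tekt1, chr11:72361862-72361927 (- strand): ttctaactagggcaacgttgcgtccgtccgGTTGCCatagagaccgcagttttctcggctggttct
Cfap58, chr19:47937623-47937688 (+ strand): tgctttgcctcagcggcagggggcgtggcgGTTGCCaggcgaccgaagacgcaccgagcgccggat

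The outer dynein arm had 7 members, all tested, of which 5 fell and 2 did not pass. Dnah5 (ENSMUSG00000022262, GRCm38 chromosome 15, 28203752 to 28472052, plus strand), the heavy chain most often mutated in outer-arm ciliary dyskinesia, stood at 33.9 and 49.1 CPM in the Sugen-Hypoxic libraries, against 84.2 and 79.01 CPM in the Normoxic libraries. Its log2 fold change was -0.91 ± 0.16 (SE) with adjusted p = 0.0267 (edgeR). Dnah9 (ENSMUSG00000056752, GRCm38 chromosome 11, 65831282 to 66168551, minus strand), a heavy chain of the distal part of the cilium, had 18.5 and 24.01 CPM in the Sugen-Hypoxic libraries, against 47.3 and 45.2 CPM in the Normoxic libraries. That gave -1.05 ± 0.12 (SE) with adjusted p = 0.00956, and the groups did not overlap in either gene. Dnah11, the heavy chain of the proximal part, was nearly equal within each group, at 17.1 and 16.4 CPM after Sugen and hypoxia, against 29.9 and 30.8 CPM in normoxia, with log2 fold change -0.79 ± 0.07 (SE) and adjusted p = 0.00650. The intermediate chains Dnaic1 and Dnaic2, which anchor the heavy chains, fell together. Dnaic1 had 5.27 and 6.46 CPM after Sugen and hypoxia, against 11.3 and 10.4 CPM in normoxia, and Dnaic2 had 8.76 and 10.8 CPM after Sugen and hypoxia, against 20.3 and 19.1 CPM in normoxia. Their log2 fold changes were -0.82 and -0.94, with adjusted p = 0.0239 and 0.0118.

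The outer-arm heavy chains known from sperm were the 2 members of this class that did not pass. Dnah8, the sperm counterpart of Dnah5, stood at 8.65 and 8.68 CPM in the Sugen-Hypoxic libraries, against 6.15 and 7.57 CPM in the Normoxic libraries. It was the tested member with the highest log2 fold change, 0.41 ± 0.14 (SE), with a 95% interval of 0.05 to 0.76 and adjusted p = 0.124, and it did not pass. Both Sugen-Hypoxic libraries lay above both Normoxic libraries, which was so for 21.3% of all genes tested. Dnah17, the sperm counterpart of Dnah9 and Dnah11, was near the limit of detection at 0.454 and 0.352 CPM after Sugen and hypoxia, against 0.357 and 0.464 CPM in normoxia, with an interval of -0.99 to 1.07 for its log2 fold change. On the opposite strand of its exons lay 98.4% of the reads of both strands, and the gene Pgs1 overlaps it there.

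Inner dynein arms and the proteins that tether or modify them were lower throughout. All 15 members had a negative log2 fold change, 13 fell, and the class median was -0.84. Dnah1 (log2 fold change -1.10), Dnah6 (-1.07) and Dnah7c (-1.07), heavy chains of single-headed inner arms, were among the 5 tested members with the lowest fold changes. Dnah6 was the most abundant of these 3 per kb, with 36.5 and 47.03 CPM in the Sugen-Hypoxic libraries, against 88.2 and 95.9 CPM in the Normoxic libraries. Its adjusted p was 0.00875, and those of Dnah1 and Dnah7c were 0.0199 and 0.0200. Dnali1, an inner-arm light chain, fell by less, to 59.6% of its normoxic mean, with 13.2 and 15.2 CPM after Sugen and hypoxia, against 23.03 and 24.7 CPM in normoxia. Cfap43, a protein of the tether that holds the base of an inner arm, had 69.3 and 63.8 CPM after Sugen and hypoxia, against 86.8 and 93.5 CPM in normoxia. At -0.37 ± 0.07 (SE) with adjusted p = 0.0341, it was the member with the smallest fall among the 44 called.

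Dnah7a, Dnah7b and Dnah7c are near-copies on chromosome 1, and multimapping reads enter no gene's count. Of the 100-base stretches in their annotated transcripts, 19.1, 14.4 and 23.9% also occur in a partner, so their counts are uncertain. Dnah7a was at 2.63 and 3.96 CPM after Sugen and hypoxia, against 6.03 and 6.18 CPM in normoxia, and its log2 fold change of -0.82 did not pass (adjusted p = 0.0730). Dnah7b was at 5.01 and 5.53 CPM after Sugen and hypoxia, against 10.7 and 9.0 CPM in normoxia, and it fell by 0.84 on the log2 scale (adjusted p = 0.0249). Dnah7c was at 4.08 and 5.62 CPM after Sugen and hypoxia, against 10.5 and 10.9 CPM in normoxia.

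**Figure D2:**
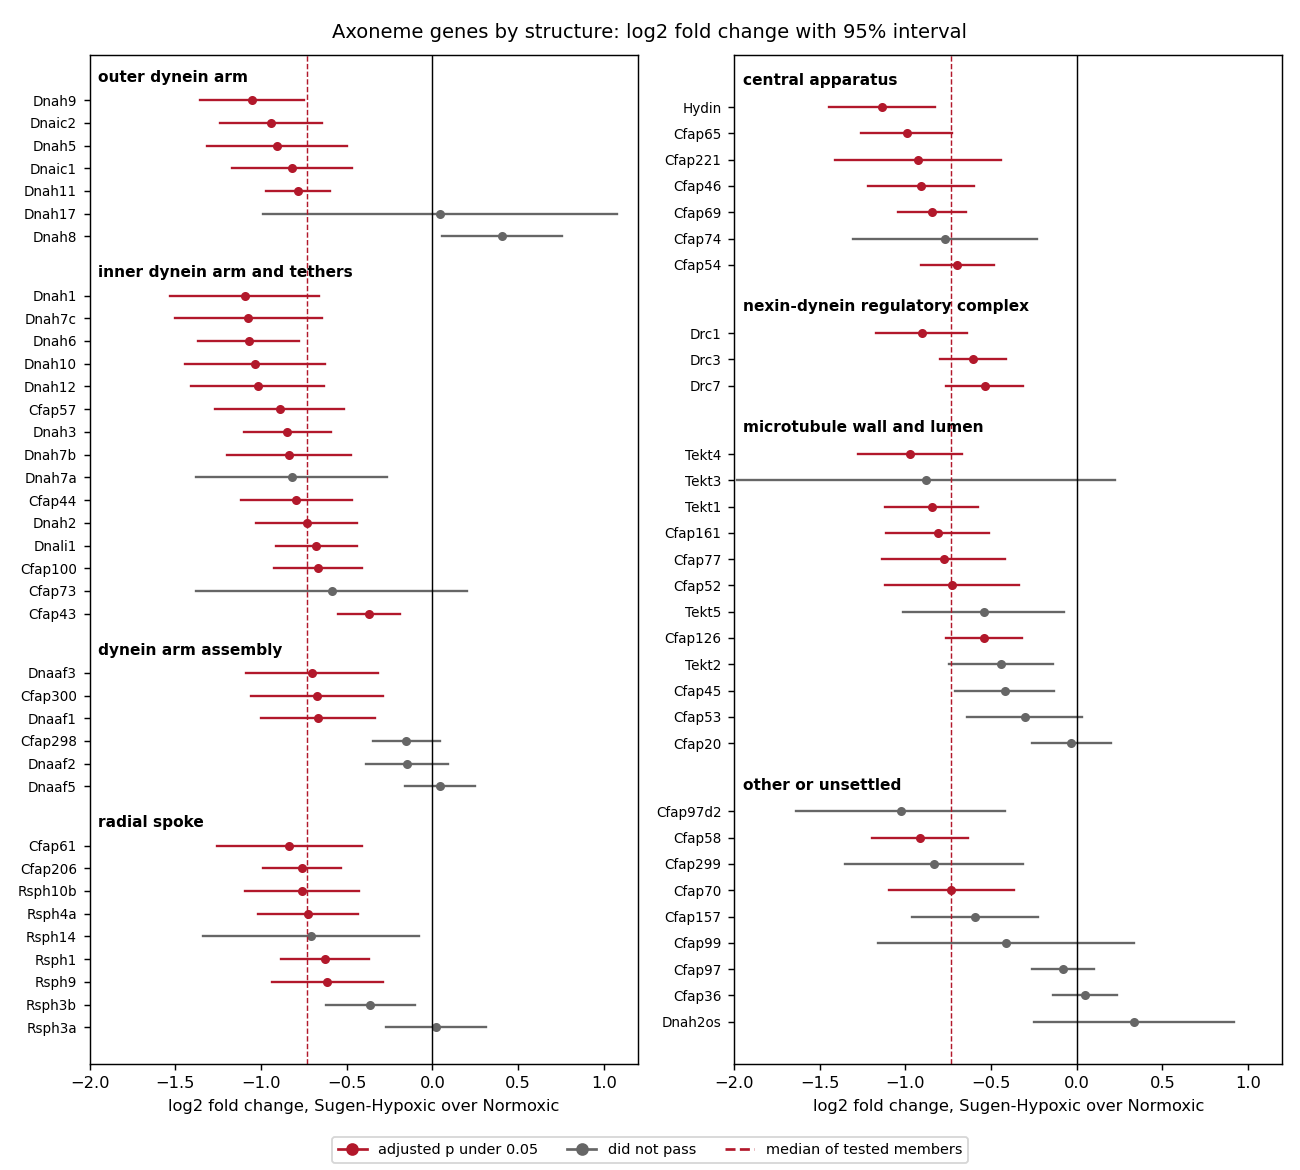
Log2 fold change (Sugen-Hypoxic over Normoxic) of the 68 tested members with its 95% interval from edgeR's quasi-likelihood fit, grouped by structure; red members passed at an adjusted p under 0.05, grey ones did not, and the dashed line is the members' median of -0.73. Dnah8 and Dnah17 stand to the right of the other outer-arm members, and Cfap20, Cfap36, Cfap97, Dnaaf5 and Rsph3a lie near 0.

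Assembly factors, which fold and join dynein arms in the cytoplasm before they enter the cilium, were split. Dnaaf1, Dnaaf3 and Cfap300 fell, while Cfap298, Dnaaf2 and Dnaaf5 did not pass, and the class median was -0.41. Dnaaf3 had 6.12 and 8.22 CPM in the Sugen-Hypoxic libraries, against 12.4 and 12.1 CPM in the Normoxic libraries, with log2 fold change -0.70 ± 0.16 (SE) and adjusted p = 0.0450. With unstranded counts Dnaaf3 did not pass (log2 fold change -0.74, adjusted p = 0.0748), and 2 assembly members were then called. Dnaaf5, a repeat protein of the same preassembly process, had 27.3 and 27.3 CPM in the Sugen-Hypoxic libraries, against 26.01 and 29.5 CPM in the Normoxic libraries. The groups of Dnaaf5 overlapped, with a log2 fold change of 0.05 and a 95% interval of -0.16 to 0.25. Cfap298 was the most abundant assembly member per kb, with 19.6 and 19.3 CPM after Sugen and hypoxia, against 23.4 and 21.98 CPM in normoxia, with a log2 interval of -0.35 to 0.05. Dnaaf2, named after its values were seen, had a log2 fold change of -0.15 and an interval of -0.39 to 0.09.

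Of 10 radial spoke members 9 were tested and 6 fell, with a median of -0.71. Rsph1 (ENSMUSG00000024033, GRCm38 chromosome 17, 31255019 to 31277383, minus strand), a spoke head protein, had the highest normoxic level per kb of all members, with 11.4 ± 1.52 CPM per kb after Sugen and hypoxia and 18.5 ± 0.0601 in normoxia (SD, n = 2 each). In the Sugen-Hypoxic libraries Cfap298 and Cfap36 were above it, at 12.2 and 11.6 CPM per kb. Rsph1 was at 14.2 and 17.2 CPM in the Sugen-Hypoxic libraries, against 25.3 and 25.4 CPM in the Normoxic libraries, with log2 fold change -0.63 ± 0.10 (SE) and adjusted p = 0.0211. Rsph4a, another spoke head protein, had 14.99 and 18.96 CPM after Sugen and hypoxia, against 30.03 and 28.9 CPM in normoxia, and fell by 0.73 on the log2 scale (adjusted p = 0.0206). Cfap206, at the spoke base, and Cfap61, of the calmodulin-associated spoke complex, were lower by similar amounts, with log2 fold changes of -0.76 and -0.83 (adjusted p = 0.0103 and 0.0359). The spoke stalk protein is encoded by Rsph3a and Rsph3b, which share 44.7 and 46.1% of their 100-base stretches with each other, so reads may be missing from both. Rsph3a had 8.90 and 10.3 CPM after Sugen and hypoxia, against 10.2 and 9.62 CPM in normoxia, and its groups overlapped, with an interval of -0.27 to 0.31. Rsph3b was at 7.66 and 7.61 CPM after Sugen and hypoxia, against 10.2 and 10.4 CPM in normoxia, and did not pass (adjusted p = 0.0828). Rsph6a, known from sperm, was at 0 in all 4 libraries.

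The central apparatus had the lowest class median, -0.91, and 6 of its 7 members fell. Hydin (ENSMUSG00000059854, GRCm38 chromosome 8, 110266977 to 110610253, plus strand), a giant protein of a central pair projection whose loss causes hydrocephalus in mice, had the lowest log2 fold change of all tested members. It stood at 20.2 and 26.4 CPM in the Sugen-Hypoxic libraries, against 55.2 and 52.4 CPM in the Normoxic libraries, which gave -1.14 ± 0.12 (SE) with adjusted p = 0.00852. Cfap65 was the most abundant of the class per kb, with 3.54 ± 0.569 CPM per kb after Sugen and hypoxia and 7.39 ± 0.0307 in normoxia (SD, n = 2 each), and it fell by 0.99 on the log2 scale (adjusted p = 0.00820). Cfap69 and Cfap54, proteins of central pair projections, were lower too, at log2 fold changes of -0.84 ± 0.08 (SE) and -0.70 ± 0.09 (SE) and adjusted p = 0.00650 and 0.0108. The class summed to 10.2 ± 1.48 CPM per kb in the Sugen-Hypoxic libraries and 20.4 ± 0.310 in the Normoxic libraries (SD, n = 2 each).

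All 3 members of the nexin-dynein regulatory complex fell. Drc1, a scaffold subunit, had 11.8 and 10.2 CPM in the Sugen-Hypoxic libraries, against 21.9 and 21.3 CPM in the Normoxic libraries, with log2 fold change -0.91 ± 0.11 (SE) and adjusted p = 0.00985. Drc7 had 10.4 and 10.7 CPM after Sugen and hypoxia, against 15.4 and 16.7 CPM in normoxia, and fell by 0.54 on the log2 scale (adjusted p = 0.0226). In Drc1 replicate 1 was the higher of the treated pair, while 12 of the 14 heavy chains were higher in replicate 2.

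In the doublet wall and lumen, 6 of 12 members fell and all 12 had a negative log2 fold change. Tekt4, a filament protein of the doublets, had 4.99 and 4.82 CPM after Sugen and hypoxia, against 10.3 and 9.93 CPM in normoxia, and fell by 0.97 on the log2 scale (adjusted p = 0.0111). Tekt1 had 6.70 and 7.21 CPM after Sugen and hypoxia, against 12.4 and 13.8 CPM in normoxia, and fell by 0.85 (adjusted p = 0.0122). Cfap126, a protein inside the doublets that was the most abundant of the class per kb, had 12.1 and 13.5 CPM after Sugen and hypoxia, against 19.7 and 19.4 CPM in normoxia, with log2 fold change -0.54 ± 0.09 (SE) and adjusted p = 0.0215. Cfap20, which closes the inner junction between the tubules of a doublet, had 26.8 and 31.9 CPM after Sugen and hypoxia, against 30.9 and 31.9 CPM in normoxia. Its groups overlapped, and the 95% interval of its log2 fold change ran from -0.26 to 0.20.

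Among 11 members with another or an unsettled place, 9 were tested and 2 fell. Cfap36 and Cfap97 were the most abundant per kb of this group, at 11.8 and 6.42 CPM per kb in normoxia. Cfap36 had 30.2 and 33.6 CPM after Sugen and hypoxia, against 31.5 and 33.3 CPM in normoxia, with a log2 interval of -0.14 to 0.23, and Cfap97 had 29.2 and 30.5 CPM after Sugen and hypoxia, against 34.3 and 31.9 CPM in normoxia, with a log2 interval of -0.26 to 0.10. Cfap97d2 was low, at 0.994 and 1.06 CPM after Sugen and hypoxia, against 2.04 and 2.35 CPM in normoxia, and its log2 fold change of -1.03 did not pass (adjusted p = 0.0538). Dnah2os, the antisense RNA at Dnah2, had 4.29 and 3.04 CPM after Sugen and hypoxia, against 3.10 and 3.01 CPM in normoxia, and did not pass (log2 fold change 0.33, adjusted p = 0.389). Cfap97d1 was at 0 in all 4 libraries, and Dnah14 reached no more than 0.137 CPM in any library. The signs of Rsph3a, Dnaaf5, Cfap36 and Dnah17, positive with TMM factors, were negative under upper-quartile scaling and under scaling by library size.

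**Figure D3:**
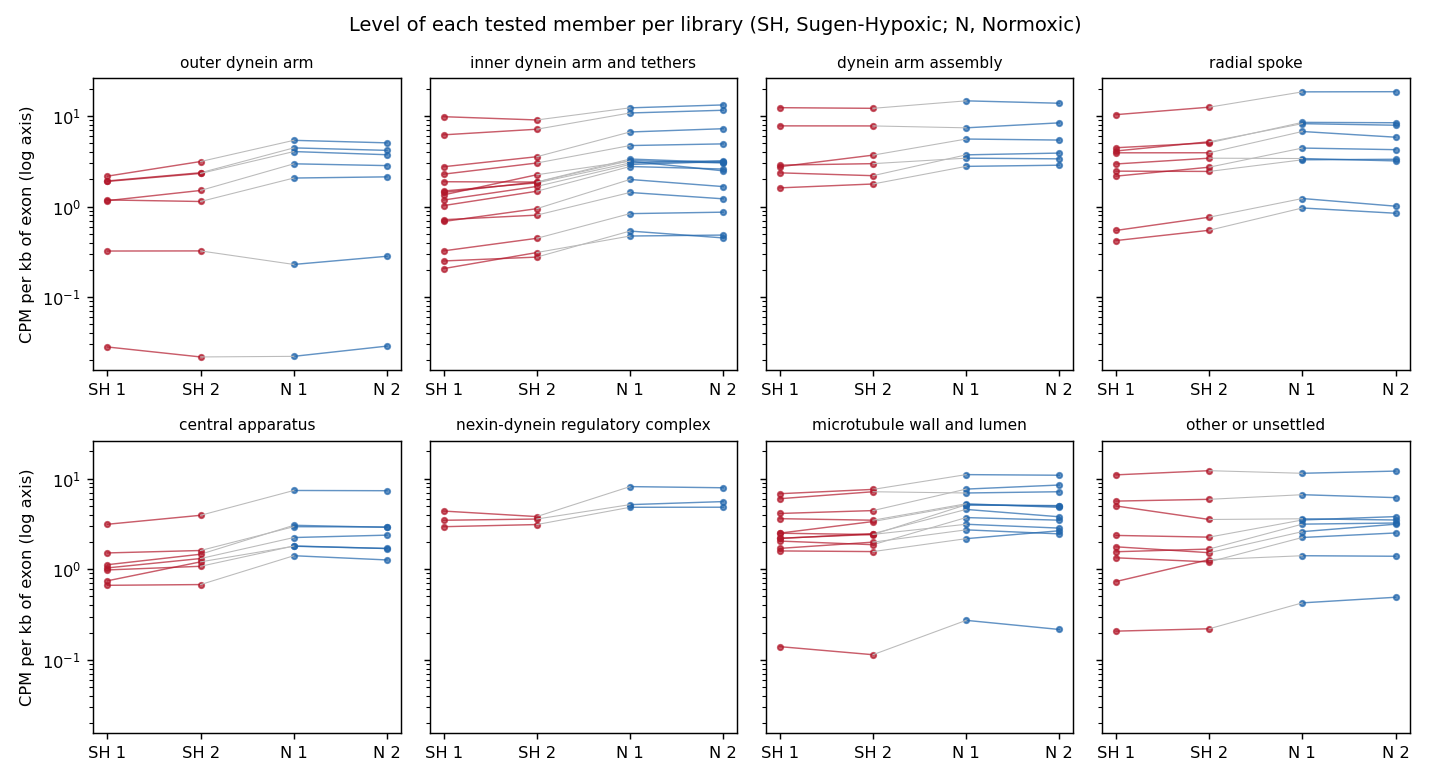
Level of each tested member in CPM per kb of exon (log axis) in the Sugen-Hypoxic (SH, red) and Normoxic (N, blue) libraries, with a panel for each structure and a line for each member. Lines step up between SH 2 and N 1 in most members, and the level of Rsph1 in the radial spoke panel, near 11.4 after Sugen and hypoxia and 18.5 in normoxia, is the highest of that panel in normoxia and of all members there.

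Sums of CPM per kb of exon depend on how many members a structure has, so they do not compare levels between structures. The outer arm had 7 members, the inner arm class 15, the radial spokes 10 and the doublet wall and lumen 12. Members together summed to 196 ± 13.2 CPM per kb in the Sugen-Hypoxic libraries and 301 ± 1.09 in the Normoxic libraries (SD, n = 2 each). The outer dynein arm summed to 9.74 ± 1.51 CPM per kb in the Sugen-Hypoxic libraries and 18.7 ± 0.655 in the Normoxic libraries, and the inner arm class to 34.03 ± 3.47 CPM per kb in the Sugen-Hypoxic libraries and 58.7 ± 0.705 in the Normoxic libraries. Radial spokes held 33.98 ± 3.67 CPM per kb in the Sugen-Hypoxic libraries and 54.3 ± 1.34 in the Normoxic libraries, and the doublet wall and lumen 37.2 ± 2.46 CPM per kb in the Sugen-Hypoxic libraries and 57.4 ± 0.704 in the Normoxic libraries. As a share of the normoxic sum, the treated sum was lowest in the central apparatus (50.1%) and outer arm (52.1%) and highest in assembly factors (80.0%) and the members of unsettled place (83.3%). The 15 dynein heavy chains summed to 15.5 ± 2.79 CPM per kb in the Sugen-Hypoxic libraries and 31.2 ± 0.0836 in the Normoxic libraries, 49.5% of the normoxic sum. Differences between structures were not tested.

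The median fold change of members was lower in the longer length classes. Over the 68 tested members the log2 of exon length and the log2 fold change had Pearson's r of -0.25 and Spearman's rho of -0.36, a description across genes of the same libraries. Long members were also higher in CPM (rho 0.42). The median log2 fold change was -0.67 in the 27 members under 3 kb, -0.69 in the 18 from 3 to 6 kb, -0.83 in the 7 from 6 to 12 kb and -0.88 in the 16 over 12 kb. Other tested genes of these lengths had medians of -0.02, 0.01, 0.01 and -0.03. The 16 members over 12 kb were the 14 tested dynein heavy chains, Hydin and Cfap54, so length and gene family cannot be told apart there. Among members over 12 kb, Sugen-Hypoxic replicate 2 stood over replicate 1 at a median log2 ratio of 0.37, against 0.02 for other genes of that length. Most members of that length are the heavy chains, whose gap was given above. In the 7 members from 6 to 12 kb, none of them a heavy chain, the ratio was 0.34, against 0.02 for other genes of that length. It was 0.11 in members under 3 kb and 0.09 in those from 3 to 6 kb, against 0.03 and 0.02 for other genes. The part of RNA quality in these values was not tested.

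**Figure D4:**
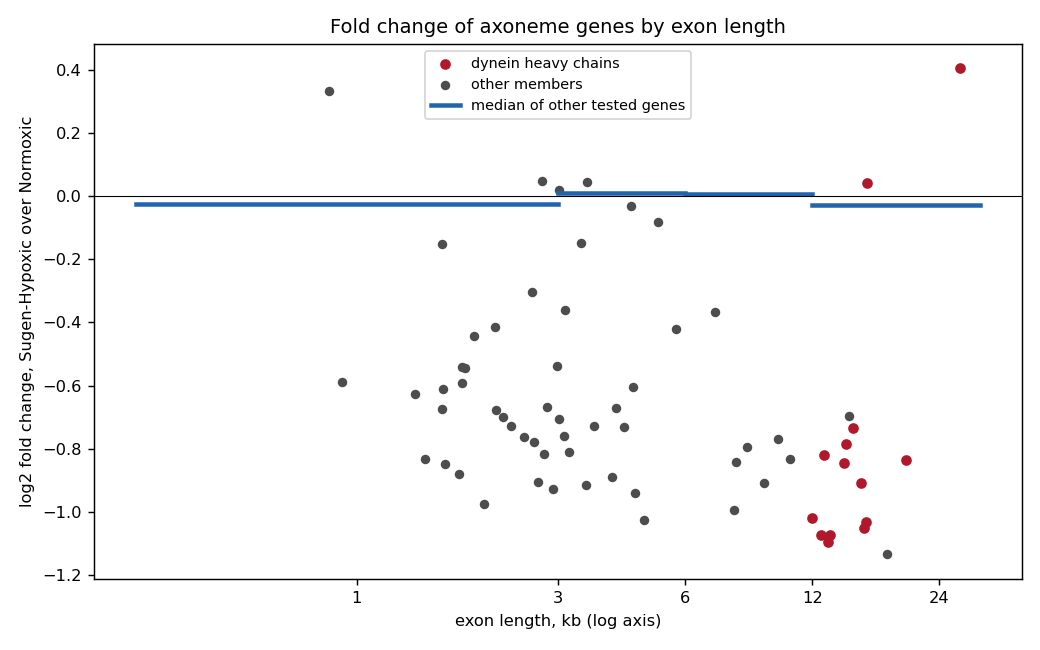
Log2 fold change (Sugen-Hypoxic over Normoxic) of the tested members against exon length in kb (log axis), with dynein heavy chains in red, other members in grey, and the median of other tested genes in each length bin as a blue line. The blue lines stay between -0.03 and 0.01, most members lie below them at every length, and Dnah8 stands at 0.41.

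Axoneme genes with names outside these families were also lower. Of 46 such genes (docking complex, regulatory complex, spoke, central pair and assembly genes) 44 were tested. Of these, 23 fell (52.3%, against 6.01% of all genes tested) and 0 rose, with a median of -0.66. Among the 4 with the highest CPM, Ccdc40, which with its partner sets the repeat of the arms, had a log2 fold change of -0.83 ± 0.13 (SE) (adjusted p = 0.0188), and Wdr66, of the calmodulin-associated spoke complex, had -0.76 ± 0.09 (SE) (adjusted p = 0.00945). Dnal1, an outer-arm light chain, and Spef1, a microtubule-bundling protein, were at -0.17 and -0.36 and did not pass. The 16 markers of ciliated airway cells outside the axoneme were lower too, with 11 called as lower, 0 as higher and a median of -0.63. Tppp3, a tubulin-binding protein, had 168 and 155 CPM in the Sugen-Hypoxic libraries, against 253 and 271 CPM in the Normoxic libraries, with log2 fold change -0.63 ± 0.07 (SE). Cdhr3, a cadherin-related surface protein, had 25.96 and 32.9 CPM after Sugen and hypoxia, against 52.4 and 48.5 CPM in normoxia, with log2 fold change -0.71 ± 0.12 (SE). Aldh3b1 had 59.2 and 62.2 CPM after Sugen and hypoxia, against 80.15 and 77.8 CPM in normoxia. Its log2 fold change of -0.31 ± 0.06 (SE) was the smallest fall among the 16.

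Genes of intraflagellar transport and the BBSome, which serve primary as well as motile cilia, were tested beside them. Of 40 genes 7 fell (17.5%) and 0 rose, with a median of -0.18. Over all genes tested, 6.01% were called as lower and 5.51% as higher. The difference between the transport genes and the axoneme members was not tested. Traf3ip1, a transport subunit, had a log2 fold change of -0.35 ± 0.06 (SE) (adjusted p = 0.0275), and Kif3b, a motor subunit, was at -0.0036. Foxj1, the factor that directs motile cilium formation, stood at 69.2 and 77.2 CPM in the Sugen-Hypoxic libraries, against 109.9 and 97.6 CPM in the Normoxic libraries. Its log2 fold change was -0.44 ± 0.09 (SE) with adjusted p = 0.0329, and 4 of 13 regulators of multiciliated cells fell, with 0 rising and a median of -0.30. Rfx3 and Rfx2, factors that bind the X-box, were at -0.42 (adjusted p = 0.0343) and -0.30 (adjusted p = 0.0610), and E2f4 was at -0.04 and did not pass. Myb and Trp73, named after their values were seen, fell too, at -0.82 and -0.67 (adjusted p = 0.0164 and 0.0210, edgeR). The log2 fold change was below 0 in 9 of the 13. It was above 0 in Ccno, Gmnc, Plk4 and E2f5, also named after their values were seen. These were at 0.82, 0.60, 0.28 and 0.10, and none of the 4 passed. Ccno, needed for making the centrioles of multiciliated cells, had 3.65 and 3.55 CPM after Sugen and hypoxia, against 2.26 and 1.99 CPM in normoxia (adjusted p = 0.0549), and its groups did not overlap.

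Other cell types of the airway and alveolus were measured in the same libraries. Club cell genes summed to 13489 and 11235 CPM in the Sugen-Hypoxic libraries, against 18949 and 18673 CPM in the Normoxic libraries, and 4 of 11 fell, among them Cbr2 (-0.84), Cyp2f2 (-0.61) and Scgb3a2 (-0.59), a reductase, a cytochrome P450 and a secretoglobin. Scgb1a1, the main club cell secretion, held most of the club cell sums. It had 10210.5 and 8457.1 CPM after Sugen and hypoxia, against 13866.6 and 13646.7 CPM in normoxia. The log2 fold change of Scgb1a1 was -0.49 and did not pass. The log2 fold change was below 0 in 9 of the 11 and above 0 in Reg3g (2.11) and Scgb3a1 (1.49), which did not pass. The mucin gene Muc5b, named after its values were seen, split the treated pools. It had 15.8 and 130.3 CPM after Sugen and hypoxia, against 85.6 and 72.7 CPM in normoxia. In Scgb3a1, Reg3g and Bpifa1, also named after their values were seen, Sugen-Hypoxic replicate 1 likewise lay below both Normoxic libraries and replicate 2 above both. Goblet cell markers summed to 5.95 and 34.5 CPM in the Sugen-Hypoxic libraries, against 18.2 and 12.4 CPM in the Normoxic libraries, likewise low in Sugen-Hypoxic replicate 1 and high in replicate 2, and 0 of 5 passed (0 at an unadjusted p under 0.05). Basal cell markers summed to 2.65 and 4.54 CPM in the Sugen-Hypoxic libraries, against 4.53 and 4.33 CPM in the Normoxic libraries, and 0 of 5 tested members passed in edgeR's test (0 unadjusted). Of the other lists, 1 of 8 alveolar type 2, 1 of 7 alveolar type 1 and 1 of 5 mesothelial markers were called as lower. Their medians were -0.05, -0.18 and -0.23. Over all genes tested, 6.01% were called as lower, so 1 gene in lists this short says little about the cell type. Among neuroendocrine and tuft cell markers, 0 of 7 tested passed (1 unadjusted). Of the kidney markers 3 were tested and 0 passed (2 unadjusted). The part of club or other cells in the axoneme values was not tested.

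**Figure D5:**
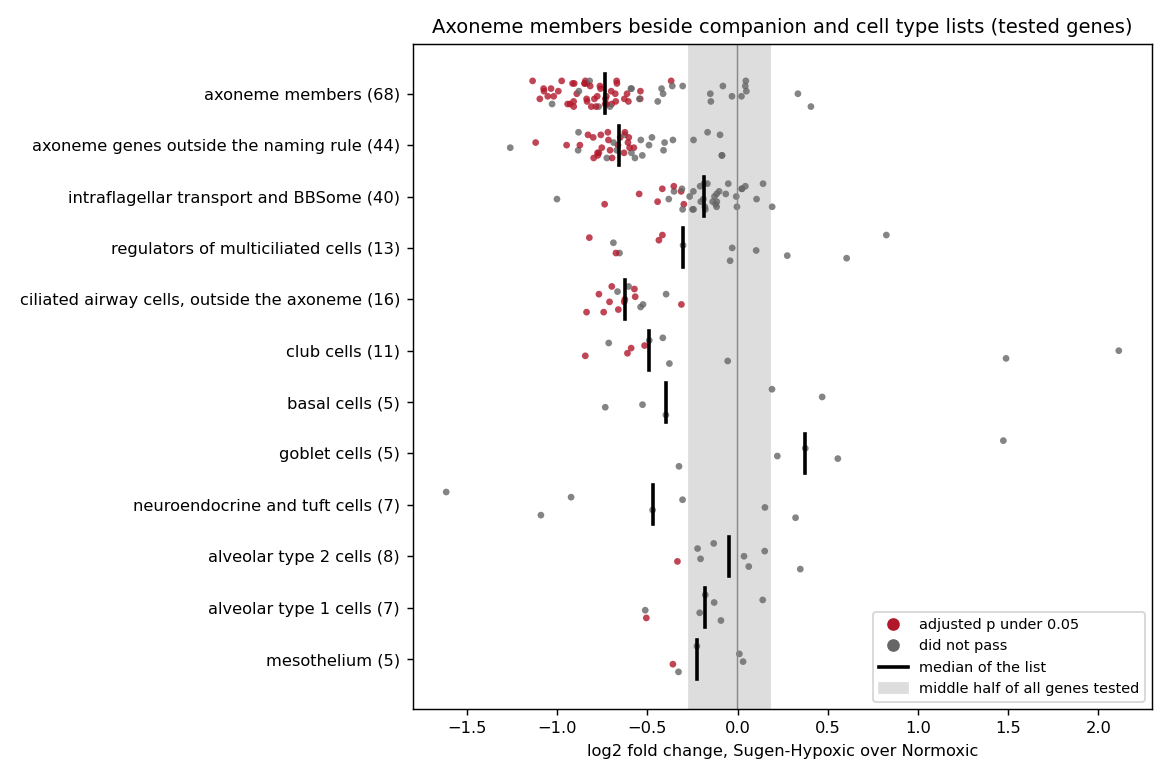
Log2 fold change (Sugen-Hypoxic over Normoxic) of tested genes in the axoneme members and in companion and cell type lists, with the number of tested genes in brackets, red for an adjusted p under 0.05, a black bar for each list's median and a grey band from the lower to the upper quartile of all genes tested. The axoneme members, the axoneme genes named otherwise and the ciliated cell markers have medians of -0.73, -0.66 and -0.63, left of the band from -0.27 to 0.18, and the kidney and male germ cell lists are not drawn.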

How the data were processed

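RNA from 4 pooled mouse lung libraries was analysed. The deposited values are read counts per gene, made with STAR 2.5.1b on GRCm38.p4 per the submitters' processing notes, which also name HTSeq. The annotation and strand setting were not given in the sources used here. The counts of the strand column holding 20.9 to 24.9 times the reads of the other were used. Rows that name no gene held 20.95 to 22.06% of each column's total and were left out. Symbols, exon lengths and coordinates came from GENCODE release M21, which matched 47224 of 47729 IDs. Replicates were numbered in record order.

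Genes were filtered with filterByExpr and tested in edgeR 4.0.16 (R 4.3.3) with TMM factors and the quasi-likelihood test, fitted on all 18783 genes that passed, with Benjamini-Hochberg adjustment over all of them and a threshold of 0.05. The design held treatment alone. Standard errors were derived from the F statistic, and 95% intervals from its degrees of freedom. CPM used raw library sizes, and CPM per kb the summed exon length. The fit was tested on simulated data, where the share of false calls was above the nominal level, so calls near the threshold are the less secure. Alternatives were other scalings, no filter, a mean CPM of at least 1, DESeq2 1.42.0, limma 3.58.1 (voom), unstranded counts, the male fraction as a covariate and leaving out each library.

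The members, structural classes and companion lists were chosen with earlier results of these data known. Genes named were a set of landmark genes (Hydin, Dnah5, Dnah9, Dnah11, Dnaic1, Dnaic2, Rsph1, Rsph4a, Drc1, Tekt1, Foxj1), the most abundant 2 per kb and both extremes of fold change in each class, the 5 lowest and 5 highest fold changes, and at most 4 genes of each companion list by mean CPM. Dnah7a, Dnah7b, Rsph3b, Dnaaf1, Dnaaf2, Cfap300, Cfap58 and Dnah10 are named beyond that rule, for shared sequence, to list a class in full or for their promoters.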

Additional observations from a re-analysis of the deposited data

Results flagged for a closer look

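Reads on the strand opposite Dnah17, which the main comparison did not use, reached 26.9 and 26.7 CPM in the Sugen-Hypoxic libraries, against 20.4 and 22.5 CPM in the Normoxic libraries, while the gene's own strand held 0.454 and 0.352 CPM after Sugen and hypoxia and 0.357 and 0.464 CPM in normoxia. The signal was singled out because it lies outside the main measurement and above the level in normoxia. Pgs1 lies on that strand, and its own counts were 96.7 and 98.04 CPM in the Sugen-Hypoxic libraries, against 79.96 and 81.6 CPM in the Normoxic libraries. Its part in the reads was not tested. Unstranded counts took in part of these reads, with 1.85 and 1.94 CPM for Dnah17 after Sugen and hypoxia and 1.71 and 2.74 CPM in normoxia.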

How the results depend on the processing

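Members called as lower numbered 44 to 50 under other scalings, filters and tools and with unstranded counts, and 0 were called as higher in any setting. All 44 calls were kept in those settings, except 43 with unstranded counts, where Dnaaf3 was lost. With the male fraction as a covariate, 11 genes of all tested and 0 members were called. Most tested members were then called as lower in 0 of 8 classes, which include the members of unsettled place (5 before). Companion lists with most genes called numbered 0 (2 before). The log2 fold change was still below 0 in 64 of the 68 members in that fit. The count over all genes was 3657 with no filter and 3254 with DESeq2, against 2163. Leaving out 1 library gave 25 to 5101 genes, 0 to 53 members, 0 to 7 classes and 0 to 6 lists; the cause was not tested. Log2 fold changes near 0 changed sign, again with the cause not tested. Under upper-quartile scaling Dnaaf5 was -0.0051, Rsph3a -0.0291, Cfap36 -0.002 and Dnah17 -0.0081, and scaled by library size Dnaaf5 was -0.0235, Rsph3a -0.0459, Cfap36 -0.0195 and Dnah17 -0.0274. Unstranded counts gave Rsph3a -0.24 and Dnah17 -0.16. The male fraction gave Dnaaf5 -0.12, Cfap36 -0.0152, Cfap97 0.044 and Dnah17 -0.31. Leaving out 1 library gave Dnaaf5 -0.0287 to 0.13, Rsph3a -0.0724 to 0.11, Cfap20 -0.15 to 0.0789, Cfap36 -0.013 to 0.11 and Dnah17 -0.16 to 0.23. Of 454 values of named genes under the alternatives, 349 kept direction and side of the threshold, 76 no longer passed, 8 newly passed and 21 changed sign. No paired analysis was possible because the labels tie no library of one group to a library of the other. Dnah17, with 0.352 to 0.464 CPM, had too few reads for a difference of this size to be detectable.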
